A study of Mus musculus with 24 samples.

Results

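Muscle driven at 10 Hz was compared directly with muscle driven at 4 Hz. The samples used were every library of the 60-min experiment at either frequency, 6 at 10 Hz and 6 at 4 Hz, or 12 of the 24 libraries, and the comparison was described across the 13315 genes that passed the filter on low counts out of 56941 listed. Both groups were C2C12, an established line of mouse myoblasts that fuse and form beating myotubes in culture, with the genotype ChR2::tdTomato, a light-gated cation channel (ChR2(H134R)) joined to a red fluorescent protein. All groups shared this genotype, and the tissues were flat sheets differentiated on grooved fibrin gels in medium with horse serum and IGF-1. Blue light was pulsed for 60 min daily at 10 Hz or at 4 Hz, and the other groups of the fit were an unstimulated control and tissues stimulated at 1 Hz, with 6 libraries each. The replicates are biological replicates of 1 cell line, and the study describes spontaneous twitching in all conditions, the unstimulated control included.

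Each light pulse opens the channel, depolarizes the membrane and releases calcium from the sarcoplasmic reticulum, and pulses that follow each other closely leave less time for relaxation between contractions. Calcium and mechanical load act on transcription through immediate early genes, calcineurin, the YAP coactivator and energy sensors, and FoxO factors drive genes of muscle wasting. Muscle differentiation is controlled by the MyoD family, among which Myod1 and Myf5 specify myoblasts and Myog drives terminal differentiation, whereas Pax7 marks satellite-like progenitors.

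The promoters of a differentiation factor and of an immediate early gene are shown because both genes differed between the frequencies and both classes have well known binding elements in front of their start. The RefSeq promoter of Myog (GRCm38.p6, plus strand, chr1:134289854-134290003, the bases before the start) held 2 E-boxes, the element CANNTG bound by MyoD family proteins, which are in capitals.
Myog promoter: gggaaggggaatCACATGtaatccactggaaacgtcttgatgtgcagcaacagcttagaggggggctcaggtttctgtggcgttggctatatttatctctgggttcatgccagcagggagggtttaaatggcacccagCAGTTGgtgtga
The E-box CACATG began 138 bases before the start and CAGTTG began 12 bases before it. Of the 5 listed promoters of Egr2, a zinc finger factor of the immediate early class, 4 held a CArG box, the element bound by serum response factor, in the 150 bases before the start. Listed promoters 3, 4 and 5 overlap and share the same box, so they are not separate occurrences. One of them (chr10:67537719-67537868, plus strand, same build) is printed with the box in capitals.
Egr2 promoter: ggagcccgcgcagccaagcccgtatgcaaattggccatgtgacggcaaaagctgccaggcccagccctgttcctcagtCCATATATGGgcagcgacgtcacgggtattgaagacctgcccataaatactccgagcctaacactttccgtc
The CArG box began 72 bases before the start. A match of letters describes the sequence only.

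Depth ran from 8052369 to 11985438 estimated counts at 10 Hz and from 8132175 to 13400006 at 4 Hz. All 10 markers of muscle identity were detected, and their summed share was 1.07 to 1.25% of scaled counts at 10 Hz and 1.05 to 1.34% at 4 Hz. Markers of other cell types ranged from 0 to high levels. The bone marker Spp1 had a median of 1254 TPM at 10 Hz and 1185 TPM at 4 Hz. The fibroblast marker Ly6a had 1182 and 1236 TPM, and the blood marker Cd68 74.4 and 71.4 TPM. Whether the muscle cells themselves express these genes was not tested. Over 10 fat markers the summed share was 0.00422 to 0.00621% at 10 Hz and 0.00336 to 0.00501% at 4 Hz, and the defining Cidec and Retn were at 0 in every library. Over 10 bone and cartilage markers it was 0.113 to 0.151% and 0.117 to 0.139%, with Sp7 and Ibsp at 0. Fibroblast and tendon markers (0.0618 to 0.0719% and 0.0686 to 0.0860%, Tcf21 at 0), smooth muscle markers (0.312 to 0.373% and 0.290 to 0.389%, none at 0), and blood, vessel and nerve markers (0.00453 to 0.00583% and 0.00504 to 0.00724%, Cd3e at 0) overlapped between the frequencies in the same way. In such bulk samples, fewer cells of a type and less RNA per cell cannot be told apart.

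The 4 Hz libraries were less alike in the level of short genes than the 10 Hz libraries. Relative to the mean of both groups, the median log2 CPM of genes with a summed exon length of up to 1000 bases was 0.35, 0.40 and 0.36 in 4 Hz replicates 1, 3 and 4, and from -0.01 to 0.10 in the other 4 Hz libraries. At 10 Hz it ran from -0.25 to 0.02, with replicates 3 and 5 at -0.02 and 0.02 and the other libraries at -0.19 or below. Replicate 3 at 4 Hz also held 8.90% of its counts in genes of the mitochondrial genome, ribosomal and transfer RNAs included, against 1.44 to 2.56% at 10 Hz, and replicate 4 held 2.73% in the ribosomal RNA copy Rn18s-rs5. Low-input samples were ribodepleted instead of poly(A) selected, and which ones is not given in the labels. The 7SK RNA Rn7sk, which lacks a poly(A) tail, read 6.09 to 44.6 CPM at 4 Hz and 3.19 to 11 CPM at 10 Hz, and its part in the results was not tested. Counts of 5 or more genes of a list in one direction are therefore also given without 4 Hz replicates 1, 3 and 4 where that moved them by more than 1.5 times. That fit keeps only 4 Hz replicates 2, 5 and 6, and a smaller group by itself lets fewer genes pass. A lower count alone therefore cannot tell a smaller difference from fewer libraries.

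At 10 Hz, 1405 genes were upregulated and 1414 downregulated against 4 Hz when genes were called at an edgeR adjusted p below 0.05 with a log2(fold change) beyond 0.5 in either direction. These 2819 genes were 21.2% of the genes tested, with 10.6% higher and 10.6% lower. Every count of list members given below is to be read beside these shares of 10.6%. An absolute log2(fold change) over 1 was reached by 460 called genes, of which 233 were higher and 227 lower, and the median absolute log2(fold change) of the called genes was 0.70. In 2513 genes, or 18.9% of those tested, the 6 libraries of each group did not overlap, 1434 of them higher and 1079 lower at 10 Hz. Genes both called and without overlap numbered 1530, with 902 higher and 628 lower. Within a frequency, the correlation of log2 CPM across genes between libraries ran from 0.972 to 0.989, and between frequencies from 0.947 to 0.979; genes are not independent replicates.

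The split between directions depended on the scale. With log2(TPM + 1) in limma, 2806 genes were called higher and 291 lower, so that the share of higher calls was 90.6% against 49.8% with TMM-scaled counts. On the TPM scale the median of all genes was 0.20 in place of -0.05, and directions of lists are read relative to that shift. Counts of calls and list medians on the TPM scale carry the same shift. Of the 41 lists with a median under 0, 29 had a median over 0 on the TPM scale, and of the 11 with a median over 0 none turned. Of the 129 genes named, 126 passed the filter on the TPM scale, where none of them turned direction and 31 lost their call. Among those 31 were Foxo3, Fbxo32, Fbxo30, Lmod2, Fhl2, Pdk4 and Pdp1. Tap1, Hes1, Ccn2, Col14a1, Ppargc1a, Myh6, Myf6, mt-Nd1 and mt-Nd4l were also among them, with limma adjusted p from 0.0568 to 0.531. Without 4 Hz replicates 1, 3 and 4, 959 genes were higher and 542 lower, and 1393 of these 1501 genes were also called with all libraries. In 16 lists edgeR called genes lower and 0 higher, and among their 479 tested members 27 were higher at an unadjusted p under 0.05, 0 were called higher by DESeq2 and 23 by limma on log2(TPM + 1). In 5 lists it called genes higher and 0 lower, and among their 91 tested members 17 were lower at an unadjusted p under 0.05 and 0 were called lower by either other tool.

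**Figure D1:**
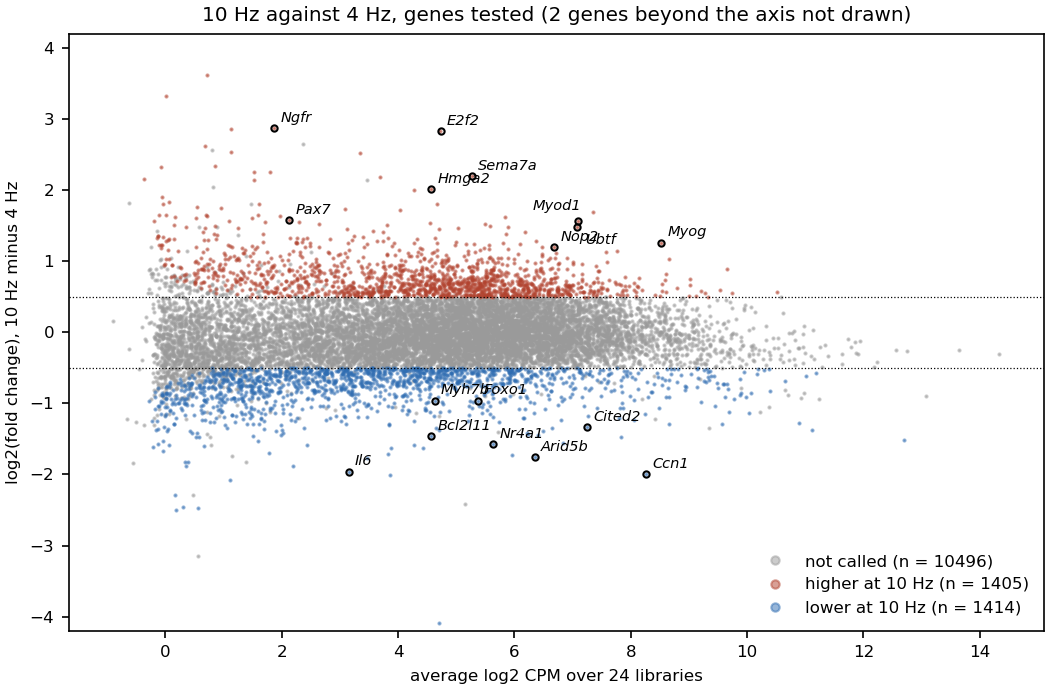
The log2(fold change) of each gene tested (10 Hz minus 4 Hz, vertical axis) against its average log2 CPM over 24 libraries (horizontal axis), with the 1405 genes called higher in red, the 1414 called lower in blue, dotted lines at the threshold of 0.5, and named genes circled. Called genes spread over the whole range of levels in both directions, and 2 genes beyond the axis were not drawn.

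The myogenic regulators were led upward by Myod1 and Myog. In what follows a level is the median CPM of 6 libraries with the lowest and highest in brackets, and ± is the standard error of the log2(fold change). Myod1 (chromosome 7, 46025870 to 46028526 of GRCm39, plus strand), the founding factor of the family, read 189.8 CPM (170.3 to 207) at 10 Hz and 60.1 CPM (51.5 to 77.1) at 4 Hz. Myog (chromosome 1, 134217707 to 134220287, plus strand) read 495 CPM (438 to 507) at 10 Hz and 203 CPM (193 to 217) at 4 Hz. All 10 Hz libraries lay above all 4 Hz libraries for both genes. Myod1 was upregulated with log2(fold change) 1.57 ± 0.0906, adjusted p = 1.97e-12. For Myog the same test gave log2(fold change) 1.26 ± 0.073, adjusted p = 1.97e-12. The unstimulated control read 214 CPM (186 to 236) for Myod1 and 590.0 CPM (459 to 599) for Myog, and tissues at 1 Hz read 80.8 CPM (68.5 to 91.4) and 224 CPM (182 to 242).

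Pax7, the satellite cell factor, read 6.08 CPM (5.81 to 7.11) at 10 Hz and 2.04 CPM (1.67 to 2.79) at 4 Hz, and was upregulated with log2(fold change) 1.57 ± 0.186, adjusted p = 4.78e-07. Myf5, by contrast, read 16.8 CPM (14.5 to 24.6) at 10 Hz and 28.6 CPM (25.7 to 30.9) at 4 Hz, and was downregulated with log2(fold change) -0.68 ± 0.127, adjusted p = 0.000139. Neither gene overlapped between groups. The late factor Myf6 was low, at 1.38 CPM (1.02 to 1.75) at 10 Hz and 2.27 CPM (1.4 to 2.99) at 4 Hz, with overlapping groups. Its call, log2(fold change) -0.72 ± 0.28, adjusted p = 0.0379, was lost in 8 of the 12 fits that left out 1 library.

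Eya3, a transcriptional coactivator with phosphatase activity that was chosen after its values were seen, read 60.3 CPM (49.3 to 72.2) at 10 Hz and 33.2 CPM (31.2 to 37.5) at 4 Hz and was upregulated with log2(fold change) 0.84 ± 0.0951, adjusted p = 2.73e-07. Its lowest 10 Hz library exceeded its highest 4 Hz library. Of the 23 tested myogenic regulators, 8 were higher and 4 lower, beside 10.6% of all genes in each direction, with a median log2(fold change) of 0.10. These counts were 8 and 1 without 4 Hz replicates 1, 3 and 4.

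**Figure D2:**
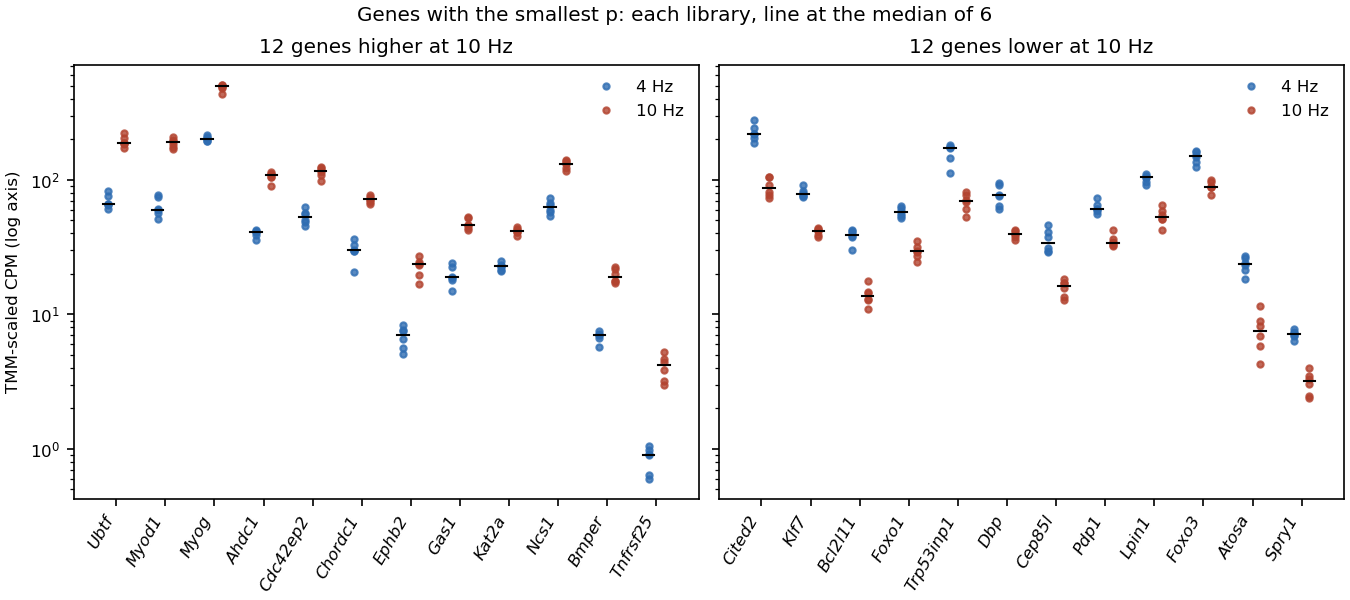
TMM-scaled CPM on a log axis for the 12 genes in each direction with the smallest p among called genes without overlap, with 4 Hz libraries in blue, 10 Hz libraries in red, and a line at the median of 6. By the rule that chose them, the groups are apart for every gene, for instance at 170 to 207 CPM against 51.5 to 77.1 CPM for Myod1.

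The gene with the smallest p in the whole comparison was Ubtf, the upstream binding factor that keeps ribosomal DNA open for RNA polymerase I. It read 188 CPM (173 to 223) at 10 Hz and 66.3 CPM (60.3 to 82.2) at 4 Hz, and in the control 186 CPM (176 to 202). No library of one group reached the other, and the gene was upregulated with log2(fold change) 1.48 ± 0.0809, adjusted p = 1.46e-12. Kat2a, a histone acetyltransferase of the SAGA complex, read 41.7 CPM (38.6 to 44.4) at 10 Hz and 22.7 CPM (20.9 to 24.9) at 4 Hz and was upregulated with log2(fold change) 0.88 ± 0.0741, adjusted p = 3.9e-09.

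Genes that build the ribosome moved with Ubtf in direction. Of the 31 tested genes of ribosome biogenesis, 20 were higher, 0 lower and 11 not called, with a median log2(fold change) of 0.59 against -0.05 over all genes. The count was 15 without 4 Hz replicates 1, 3 and 4, and 28 on the TPM scale, where the median was 0.83 with the upward shift of all genes included. Nop2, a methyltransferase of 28S ribosomal RNA, read 129 CPM (112 to 151) at 10 Hz and 53.2 CPM (51.1 to 72.8) at 4 Hz and was upregulated with log2(fold change) 1.2 ± 0.11, adjusted p = 1.2e-08. Dkc1, the pseudouridine synthase dyskerin, read 61.5 CPM (53.4 to 63.4) at 10 Hz and 33 CPM (25.6 to 37.4) at 4 Hz, with log2(fold change) 0.88 ± 0.0969, adjusted p = 1.81e-07.

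Wdr12, a subunit of the PeBoW complex of the large ribosomal subunit, read 39.1 CPM (35.1 to 47.6) at 10 Hz and 19.7 CPM (18.2 to 26) at 4 Hz, with log2(fold change) 0.94 ± 0.107, adjusted p = 2.57e-07. Polr1a, the largest subunit of RNA polymerase I and named after its values were seen, read 64.7 CPM (44.6 to 81.2) at 10 Hz and 30.2 CPM (25.6 to 36.3) at 4 Hz, with log2(fold change) 1.03 ± 0.131, adjusted p = 1.4e-06. In these 4 genes the ranges of the groups did not meet. Of 33 splicing factors, 10 were higher and 2 lower, beside 10.6% of all genes in each direction, and 21 were not called, with a median of 0.20. Srsf1, an SR protein that promotes exon inclusion, read 63.7 CPM (55.2 to 77.7) at 10 Hz and 22.6 CPM (11.2 to 30.9) at 4 Hz and was upregulated with log2(fold change) 1.5 ± 0.167, adjusted p = 2.74e-07.

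Hnrnpu, a nuclear scaffold RNA-binding protein, had log2(fold change) 0.82 ± 0.0866, adjusted p = 1.13e-07. For the SR protein Srsf9 the change was smaller, with log2(fold change) 0.68 ± 0.0882, adjusted p = 1.8e-06. Both were apart between the groups, at 428 to 509 CPM against 224 to 296 CPM for Hnrnpu and 25.2 to 28.4 CPM against 13.9 to 18.5 CPM for Srsf9. None of the 20 aminoacyl-tRNA synthetases, which charge tRNAs for translation, was called by edgeR, although 9 were higher and 4 lower at an unadjusted p under 0.05. DESeq2 also called 0 of them, and limma on log2(TPM + 1) called 6, each of them higher.

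FoxO factors and some of their atrophy targets were lower at 10 Hz. Foxo1, a forkhead factor of fasting and atrophy, read 29.4 CPM (24.6 to 35.4) at 10 Hz and 57.6 CPM (52.1 to 64.1) at 4 Hz and was downregulated with log2(fold change) -0.96 ± 0.0843, adjusted p = 5.29e-09. Foxo3, its relative, read 88.8 CPM (76.8 to 100.3) at 10 Hz and 150.3 CPM (125 to 163) at 4 Hz and was downregulated with log2(fold change) -0.71 ± 0.0778, adjusted p = 1.7e-07. Bcl2l11, which encodes the apoptosis activator Bim and is a FoxO target, read 13.7 CPM (10.9 to 17.6) at 10 Hz and 39.2 CPM (30.3 to 42.3) at 4 Hz and was downregulated with log2(fold change) -1.46 ± 0.126, adjusted p = 4.58e-09. All 10 Hz libraries lay below all 4 Hz libraries for these 3 genes.

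Among the muscle ubiquitin ligases and FoxO targets, 0 of 25 were higher and 8 were lower, with a median log2(fold change) of -0.22. On the TPM scale 4 were higher and 1 lower with a median of 0.08, below the shift of 0.20. Fbxo32, the atrophy ligase atrogin-1 and named after its values were seen, read 11.8 CPM (9.03 to 19.7) at 10 Hz and 24 CPM (22.2 to 25.7) at 4 Hz, with log2(fold change) -0.90 ± 0.157, adjusted p = 6.79e-05. Fbxo30, a ligase raised on denervation, read 90 CPM (70.2 to 93.8) at 10 Hz and 137 CPM (107 to 153) at 4 Hz, with log2(fold change) -0.64 ± 0.102, adjusted p = 2.31e-05. Klf15, a glucocorticoid-induced factor of muscle metabolism, read 2.84 CPM (1.19 to 3.09) at 10 Hz and 5.36 CPM (4.18 to 6.79) at 4 Hz, with log2(fold change) -1.13 ± 0.237, adjusted p = 0.000484.

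The ranges of Fbxo32, Fbxo30 and Klf15 did not overlap. Irs2, an insulin receptor substrate, read 11.3 CPM (2.26 to 17.7) at 10 Hz and 34.3 CPM (15.8 to 37.5) at 4 Hz, with 1 library at 4 Hz inside the 10 Hz range and log2(fold change) -1.59 ± 0.445, adjusted p = 0.00677. It was not called without 4 Hz replicates 1, 3 and 4, where the log2(fold change) was -1.44 with adjusted p = 0.0733. Irs2 was the 1 call among 16 genes of the IGF axis. The proteasome had 1 gene higher and 1 lower of 35, and autophagy and lysosome genes 1 higher and 2 lower of 44, beside 10.6% of all genes in each direction.

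Cited2, a CBP/p300-binding repressor of hypoxia signalling, had the smallest p among downregulated genes. It read 86.9 CPM (73.9 to 105) at 10 Hz and 219 CPM (189 to 277) at 4 Hz, the control 84.4 CPM (70.1 to 99.6) and 1 Hz 212 CPM (184 to 236). The 10 Hz and 4 Hz ranges were far apart, and the gene was downregulated with log2(fold change) -1.34 ± 0.101, adjusted p = 6.09e-10. Hypoxia targets as a list had 1 gene higher and 1 lower of 26, beside 10.6% of all genes in each direction. Klf7, a Kruppel-like factor, read 41.9 CPM (37.8 to 43.8) at 10 Hz and 79.1 CPM (75 to 91.2) at 4 Hz and was downregulated with log2(fold change) -0.97 ± 0.078, adjusted p = 1.8e-09.

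Targets of p53 were lower in 8 of 25 genes and higher in 0, with a median of -0.34, and lower in 5 without 4 Hz replicates 1, 3 and 4. Trp53inp1, a stress-induced p53 partner, read 70 CPM (53.2 to 81.1) at 10 Hz and 174 CPM (113 to 182) at 4 Hz and was downregulated with log2(fold change) -1.23 ± 0.11, adjusted p = 7.06e-09. Fas, the death receptor, read 6.91 CPM (6.3 to 9.01) at 10 Hz and 13.8 CPM (11.7 to 20.5) at 4 Hz, with log2(fold change) -1.03 ± 0.136, adjusted p = 2.22e-06. Psrc1, a spindle protein, read 33.5 CPM (28.9 to 43.9) at 10 Hz and 59.1 CPM (53.1 to 78.1) at 4 Hz, with log2(fold change) -0.84 ± 0.115, adjusted p = 3.45e-06. None of these genes overlapped between the groups.

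Immediate early genes, which neurons and muscle switch on within minutes of calcium entry, were lower at 10 Hz in 10 of 27 and higher in 1, with a median of -0.62. The counts were 3 and 0, with a median of -0.36, without 4 Hz replicates 1, 3 and 4. Nr4a1, an orphan nuclear receptor of contracting muscle, read 25.9 CPM (13.8 to 42.2) at 10 Hz and 80.7 CPM (58.5 to 93.3) at 4 Hz and was downregulated with log2(fold change) -1.58 ± 0.242, adjusted p = 2.71e-05. Its groups were apart, and those of the next genes were not. Fosb, an AP-1 subunit, read 6.26 CPM (1.19 to 13.3) at 10 Hz and 30.3 CPM (12.1 to 36.7) at 4 Hz, with log2(fold change) -2.01 ± 0.473, adjusted p = 0.00196. Egr2, whose promoter is printed above, read 8.4 CPM (3.45 to 28) at 10 Hz and 39.6 CPM (14.9 to 50.8) at 4 Hz, with log2(fold change) -1.63 ± 0.525, adjusted p = 0.0157.

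Fosb and Egr2 were chosen after their values were seen. In both genes the lowest 4 Hz library was replicate 6 and the highest 10 Hz library was replicate 3. Egr2, without 4 Hz replicates 1, 3 and 4, was at log2(fold change) -1.32, adjusted p = 0.156, and was not called. Fosl1, an AP-1 subunit induced later than Fosb, moved the other way. It read 184 CPM (165 to 203) at 10 Hz and 120.4 CPM (101 to 146) at 4 Hz, with log2(fold change) 0.60 ± 0.0998, adjusted p = 4.13e-05, and without those libraries it had log2(fold change) 0.48, adjusted p = 0.00551, under the threshold on fold. Of the feedback genes of the MAP kinase pathway, 4 of 18 were lower and 0 higher, and Spry1, an inhibitor of receptor tyrosine kinase signalling, read 3.17 CPM (2.39 to 4.0) at 10 Hz and 7.11 CPM (6.39 to 7.82) at 4 Hz, with log2(fold change) -1.2 ± 0.133, adjusted p = 1.91e-07.

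Targets of the mechanosensitive YAP and TEAD proteins were lower in 4 of 18 and higher in 0, while the list's median was -0.02. Ccn1, a matricellular protein and the steepest of them, read 89.5 CPM (54.7 to 292) at 10 Hz and 593 CPM (287 to 667) at 4 Hz, with a single 10 Hz library reaching the 4 Hz range. It was downregulated with log2(fold change) -2.0 ± 0.502, adjusted p = 0.00326 and was chosen after its values were seen. Ccn2, connective tissue growth factor, read 650.2 CPM (459 to 873) at 10 Hz and 1178 CPM (791 to 1508) at 4 Hz, with overlapping groups and log2(fold change) -0.86 ± 0.167, adjusted p = 0.000262.

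Among secreted factors, 3 of 26 myokines and cytokines were higher and 7 lower, beside 10.6% of all genes in each direction. The lower count was 4 without 4 Hz replicates 1, 3 and 4, and 4 on the TPM scale. There the median was 0.08 in place of -0.23, below the upward shift of all genes on that scale. Il6, the best known contraction-released cytokine, read 3.56 CPM (1.43 to 8.0) at 10 Hz and 15.1 CPM (12.2 to 24.5) at 4 Hz. No 10 Hz library reached the lowest 4 Hz library, and the gene was downregulated with log2(fold change) -1.96 ± 0.293, adjusted p = 1.65e-05. The control read 3.0 CPM (1.42 to 3.67) and 1 Hz 11.7 CPM (7.87 to 17.5). Il15, a cytokine that acts on fat and lymphocytes, read 5.35 CPM (2.61 to 6.78) at 10 Hz and 11.5 CPM (8.98 to 17.4) at 4 Hz, with log2(fold change) -1.28 ± 0.204, adjusted p = 2.33e-05. Apln, the exercise-linked peptide apelin, read 58.7 CPM (54 to 80.2) at 10 Hz and 95.9 CPM (84.5 to 112) at 4 Hz, with log2(fold change) -0.61 ± 0.096, adjusted p = 1.95e-05.

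Circadian genes were split, with 4 of 19 higher and 7 lower at a median of -0.37. Dbp, an output factor that follows the clock, read 39.6 CPM (35.5 to 42.4) at 10 Hz and 76.6 CPM (61 to 94) at 4 Hz and was downregulated with log2(fold change) -0.98 ± 0.0919, adjusted p = 2.03e-08. Nr1d2, the repressor REV-ERB beta, read 54.4 CPM (41.7 to 59.4) at 10 Hz and 94.7 CPM (80.7 to 122) at 4 Hz, with log2(fold change) -0.90 ± 0.117, adjusted p = 1.79e-06. The period gene Per3 read 11.5 CPM (10.2 to 13.4) at 10 Hz and 18.9 CPM (16 to 21.1) at 4 Hz, with log2(fold change) -0.68 ± 0.0951, adjusted p = 4.8e-06. These 3 genes did not overlap between the groups.

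Nr1d1, which encodes REV-ERB alpha and was named after its values were seen, read 27.5 CPM (14.1 to 61.4) at 10 Hz and 108 CPM (51.8 to 172) at 4 Hz. Its ranges overlapped, and it was downregulated with log2(fold change) -1.73 ± 0.36, adjusted p = 0.000728. The clock list had 1 gene higher and 7 lower without 4 Hz replicates 1, 3 and 4. The hour of RNA extraction is not given in the sources used here.

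Lpin1, a phosphatidate phosphatase and coactivator of fat oxidation, read 52.9 CPM (42.7 to 64.5) at 10 Hz and 105 CPM (92 to 109.6) at 4 Hz and was downregulated with log2(fold change) -0.93 ± 0.0975, adjusted p = 9.45e-08. Pdk4, the kinase that shuts pyruvate dehydrogenase, read 69.5 CPM (54.4 to 75.8) at 10 Hz and 117 CPM (98.6 to 123) at 4 Hz, with log2(fold change) -0.72 ± 0.0978, adjusted p = 2.98e-06. Pdp1, the phosphatase that opens the same enzyme, read 34.1 CPM (32 to 42.6) at 10 Hz and 60.9 CPM (56 to 73.3) at 4 Hz, with log2(fold change) -0.82 ± 0.0856, adjusted p = 9.3e-08. The groups were apart for all 3, so the kinase and the phosphatase of one enzyme were both lower. Both calls were lost on log2(TPM + 1), at log2(fold change) -0.42 for Pdk4 and -0.45 for Pdp1.

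Of 28 genes of the citric acid cycle and its entry, 4 were lower and 0 higher. Of 25 genes of fatty acid oxidation and uptake, 3 were higher and 3 lower, beside 10.6% of all genes in each direction. Ucp2, an uncoupling protein, was among those upregulated, with log2(fold change) 0.70 ± 0.125, adjusted p = 0.0001. Glycolysis, lactate and glycogen genes had 1 of 35 higher and 5 lower, or 2 higher and 1 lower on the TPM scale, and the one higher with edgeR was Ckb, brain-type creatine kinase, with log2(fold change) 0.68 ± 0.106, adjusted p = 1.87e-05. Insig1, which retains SREBP in the endoplasmic reticulum, read 79.3 CPM (66.1 to 91.4) at 10 Hz and 154 CPM (138 to 176) at 4 Hz, with log2(fold change) -0.96 ± 0.115, adjusted p = 5.86e-07, and was 1 of 7 lower genes of 34 in sterol and fatty acid synthesis, where 0 were higher. On the TPM scale that list had 2 higher and 1 lower, while its median relative to all genes was -0.18 in place of -0.077.

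A pair of coactivators of mitochondrial biogenesis was called in opposite directions by edgeR. Ppargc1a, or PGC-1 alpha, read 6.73 CPM (6.15 to 8.67) at 10 Hz and 11.2 CPM (7.96 to 13.7) at 4 Hz, with overlapping groups, and was downregulated with log2(fold change) -0.67 ± 0.151, adjusted p = 0.000928. Its relative Ppargc1b read 3.83 CPM (3.68 to 4.78) at 10 Hz and 2.33 CPM (1.6 to 3.18) at 4 Hz, without overlap, and was upregulated with log2(fold change) 0.77 ± 0.163, adjusted p = 0.00051. The call of Ppargc1a was lost on log2(TPM + 1), at log2(fold change) -0.38, limma adjusted p = 0.0708. Both coactivators were chosen after their values were seen. Esrrg, an orphan receptor that partners with them, read 4.01 CPM (3.58 to 5.25) at 10 Hz and 7.49 CPM (5.57 to 8.74) at 4 Hz, with log2(fold change) -0.85 ± 0.142, adjusted p = 3.9e-05. In that list of 24 genes, 1 was higher and 5 lower, and 3 were lower without 4 Hz replicates 1, 3 and 4. On the TPM scale 6 were higher and 0 lower.

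Nuclear genes of the respiratory chain were lower in 42 of 81 and higher in 0, with a median of -0.51, but this count was 1 without 4 Hz replicates 1, 3 and 4, where the median was -0.30. It was 30 with the length trend of each library removed and 8 on the TPM scale. Cox7a1, the muscle form of a cytochrome oxidase subunit, read 8.7 CPM (7.01 to 10.8) at 10 Hz and 19 CPM (13.6 to 37.2) at 4 Hz, with log2(fold change) -1.28 ± 0.26, adjusted p = 0.000434. Uqcrq and Ndufb8, subunits of complexes III and I, had log2(fold change) -0.78 ± 0.175, adjusted p = 0.00106 and log2(fold change) -0.83 ± 0.186, adjusted p = 0.00108. All 3 were apart between the groups with all libraries, and the calls of Uqcrq and Ndufb8 were lost without 4 Hz replicates 1, 3 and 4, at log2(fold change) -0.50 and -0.47.

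Of 82 cytosolic ribosomal proteins, 47 were lower and 1 higher, at a median of -0.52. Without 4 Hz replicates 1, 3 and 4 the lower count was 3 and the median -0.25. It was 30 with the length trend removed, and 11 on the TPM scale, where the median was -0.21 with the upward shift of all genes included. Rpl5, which brings 5S RNA into the ribosome, read 411 CPM (344 to 481) at 10 Hz and 745 CPM (554 to 1324) at 4 Hz, with log2(fold change) -0.99 ± 0.204, adjusted p = 0.000594. Rpl10a, a large subunit protein, read 469 CPM (429.5 to 584) at 10 Hz and 793 CPM (598 to 1009) at 4 Hz, with log2(fold change) -0.68 ± 0.137, adjusted p = 0.000359, a call lost without those libraries, where the log2(fold change) was -0.40 with adjusted p = 0.0527. The higher gene was Rpl7l1, a paralog of Rpl7 that acts in ribosome assembly, with log2(fold change) 0.62 ± 0.0893, adjusted p = 6.21e-06. Genes of ribosomal proteins share sequence with many processed copies, so their counts are uncertain.

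Mitochondrial ribosomal proteins were lower in 13 of 78 and higher in 0, and edgeR called 0 of them without those 3 libraries, with 8 lower and 5 higher at an unadjusted p under 0.05 and a median of -0.05 in place of -0.17. On the TPM scale 6 were called higher and 2 lower. The median there was 0.10, still below the shift of 0.20, so relative to all genes the direction did not turn. With the length trend removed 1 was higher and 7 lower. The 13 protein-coding genes of the mitochondrial genome were lower in 2, with a median of -0.92. mt-Nd1 and mt-Nd4l, subunits of complex I, had log2(fold change) -1.28 ± 0.503, adjusted p = 0.0427 and log2(fold change) -1.39 ± 0.46, adjusted p = 0.0188, with groups that overlapped. At 4 Hz mt-Nd1 ran from 381 to 8763 CPM. Without 4 Hz replicate 3 neither was called, at log2(fold change) -0.56 and -0.72, and the call of mt-Nd1 was lost in 7 of the 12 fits that left out 1 library. In the fit without 4 Hz replicate 3, the median of the list relative to all genes was -0.18 in place of -0.87.

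Calls followed exon length across the genes tested, and the exon lengths of the members of these lists were not summarized. Of 531 genes of up to 1000 bases, 1.88% were higher and 23% lower, with a median of -0.39. Of 4333 genes over 8000 bases, 13.7% were higher and 6.21% lower, with a median of 0.05. The part of RNA integrity and of library preparation in this trend was not tested.

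**Figure D3:**
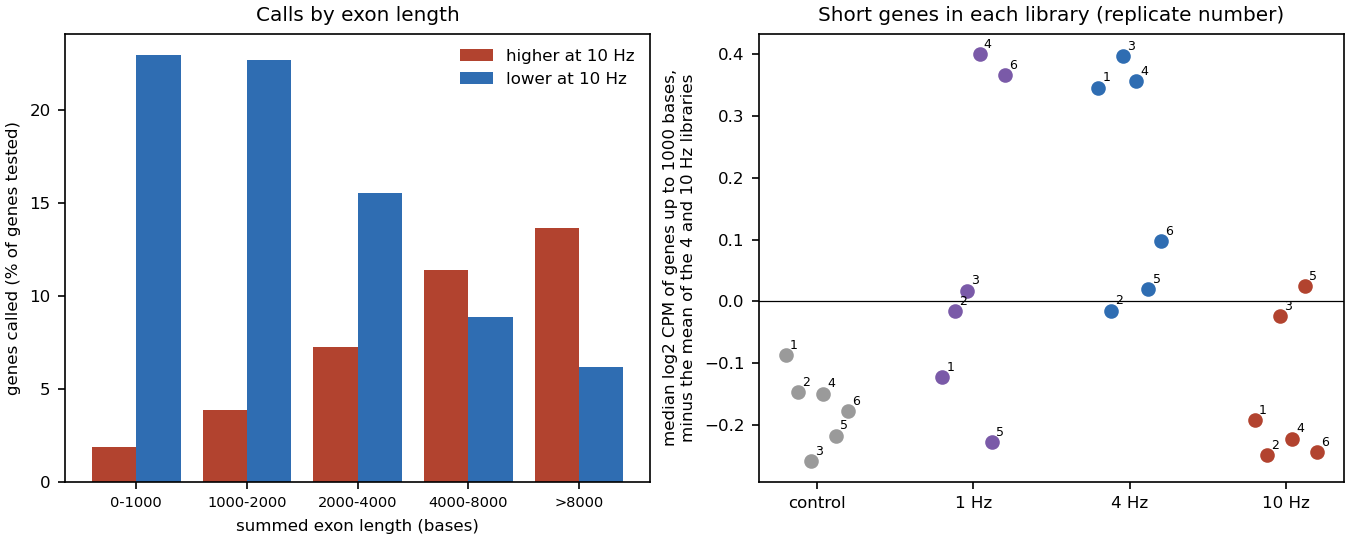
Left, the share of genes tested that were called higher (red) or lower (blue) at 10 Hz, by summed exon length in bases. Right, the median log2 CPM of genes of up to 1000 bases in each of the 24 libraries, relative to the mean of the 4 and 10 Hz libraries, where 4 Hz replicates 1, 3 and 4 stand at 0.35 to 0.40.

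In the thin and thick filament, 12 of 30 genes were lower and 0 higher, with a median of -0.37, and 3 were lower without 4 Hz replicates 1, 3 and 4. The count was 5 with the length trend removed and 1 on the TPM scale, where the median was -0.12. Relative to the median of all genes, the list stood at -0.32 in the main fit and -0.29 without those libraries. It stood at -0.33 with the length trend removed and -0.32 on the TPM scale. Lmod2, which elongates thin filaments, read 88.4 CPM (77.9 to 141) at 10 Hz and 159.6 CPM (152 to 166) at 4 Hz, with log2(fold change) -0.72 ± 0.123, adjusted p = 5.65e-05. Mybpc1 and Mybpc2, the slow and fast forms of myosin-binding protein C, had log2(fold change) -0.65 ± 0.113, adjusted p = 5.99e-05 and log2(fold change) -0.88 ± 0.159, adjusted p = 0.000116. The groups were apart for all 3. At the Z-disc, M-band and stretch sensors, 6 of 36 (16.7%) were lower and 0 higher, beside 10.6% of all genes in each direction. Among them was Fhl2, a LIM protein on titin, at 51.2 CPM (45.7 to 61.4) at 10 Hz and 85.1 CPM (75.7 to 90.5) at 4 Hz, with log2(fold change) -0.68 ± 0.0884, adjusted p = 1.77e-06. Cmya5, or myospryn, had log2(fold change) -1.1 ± 0.184, adjusted p = 4.21e-05. Without 4 Hz replicates 1, 3 and 4 the lower count was 3, and on the TPM scale 0 were lower and 1 higher, with 5 lower and 4 higher at an unadjusted p under 0.05.

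Myosin heavy chains define fibre type and stage, and their levels are first given as a share of the summed TPM of the 9 tested genes. Myh3, the embryonic form, took 17.6% (16 to 19.7%) at 10 Hz and 11.6% (9.42 to 13.2%) at 4 Hz, without overlap, and the control median was 12.6%. Myh1, the fast IIx form, took 20.7% (18.9 to 22.1%) at 10 Hz and 21.7% (20.7 to 22.5%) at 4 Hz, with overlap. The summed myosin TPM ran from 435 to 556 at 10 Hz and from 409 to 564 at 4 Hz. So the share of embryonic myosin was larger at 10 Hz while the summed level overlapped.

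As single genes on the CPM scale, 2 of the 9 passed the threshold. Myh7b, an ancient slow-type gene, read 17.9 CPM (16.1 to 18.9) at 10 Hz and 34.4 CPM (31.6 to 37.7) at 4 Hz, with log2(fold change) -0.96 ± 0.115, adjusted p = 5.86e-07, and Myh6, the alpha cardiac form, read 33.2 CPM (27 to 41.4) at 10 Hz and 52.5 CPM (43.7 to 57.2) at 4 Hz, with log2(fold change) -0.58 ± 0.122, adjusted p = 0.000484. Both were apart between the groups, and both calls were lost on log2(TPM + 1). Myh1, Myh4, Myh7 and Myh8 missed the fold threshold at log2(fold change) -0.48, -0.48, -0.48 and -0.41, with adjusted p between 0.00129 and 0.00756. Myh2 (fast IIa) had log2(fold change) -0.41 ± 0.197, adjusted p = 0.0921, Myh3 log2(fold change) 0.23 ± 0.144, adjusted p = 0.191 and Myh13 log2(fold change) -0.17 ± 0.32, adjusted p = 0.687, none of them called. On log2(TPM + 1) Myh3 passed the threshold at log2(fold change) 0.52, limma adjusted p = 0.0209. The Myh genes are close paralogs, so reads shared among them make their counts uncertain.

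**Figure D4:**
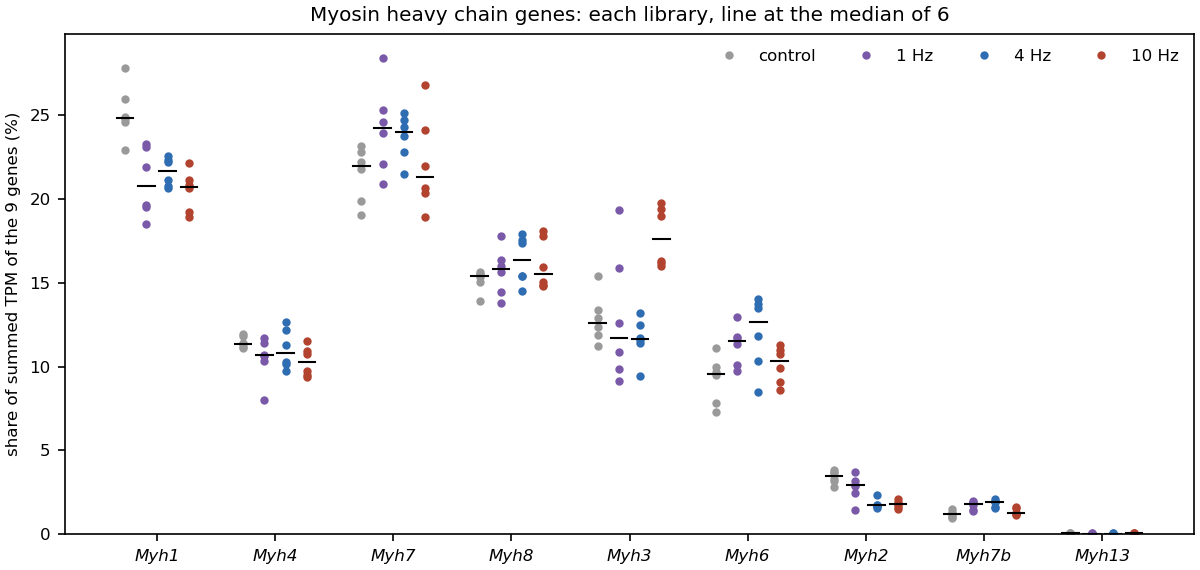
Share of each myosin heavy chain gene in the summed TPM of the 9 tested genes (percent, vertical axis) for all 24 libraries, with control in grey, 1 Hz in purple, 4 Hz in blue, 10 Hz in red and a line at the median of 6. Myh3 at 10 Hz (16 to 19.7%) lies above all 4 Hz libraries (9.42 to 13.2%).

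Of 29 genes of excitation-contraction coupling, 4 (13.8%) were lower and 0 higher, beside 10.6% of all genes in each direction. Casq1, the calcium buffer of the fast sarcoplasmic reticulum, read 144 CPM (119 to 177) at 10 Hz and 259 CPM (230.3 to 279.6) at 4 Hz, with log2(fold change) -0.81 ± 0.163, adjusted p = 0.000394. Hrc, a calcium-binding protein of the same store, had log2(fold change) -0.55 ± 0.107, adjusted p = 0.000234. It had, without 4 Hz replicates 1, 3 and 4, log2(fold change) -0.46, adjusted p = 0.0147, short of the threshold on fold. At the synapse, 2 of 14 (14.3%) were lower, beside 10.6% of all genes. Colq, the collagen tail that anchors acetylcholinesterase, read 8.65 CPM (8.28 to 10.4) at 10 Hz and 18.1 CPM (17.6 to 20.4) at 4 Hz, with log2(fold change) -1.04 ± 0.16, adjusted p = 1.51e-05. The enzyme itself, Ache, read 12 CPM (10.4 to 13.4) at 10 Hz and 19 CPM (17 to 19.6) at 4 Hz, with log2(fold change) -0.65 ± 0.10, adjusted p = 1.59e-05. These genes were apart between the groups.

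In the sarcolemma, 4 of 16 excitability genes were lower and 1 higher. Kcnj2, an inward rectifier potassium channel, had log2(fold change) -0.86 ± 0.181, adjusted p = 0.000498, and its groups overlapped. Of 23 genes of the dystrophin complex and of fusion, 3 were higher and 1 lower, beside 10.6% of all genes in each direction. Cdh15, M-cadherin of myoblasts and satellite cells, read 121 CPM (114 to 137) at 10 Hz and 64.2 CPM (58.5 to 76.2) at 4 Hz, with log2(fold change) 0.91 ± 0.108, adjusted p = 5.03e-07, and Adam12, a metalloprotease of fusing cells, had log2(fold change) 1.63 ± 0.31, adjusted p = 0.000184. Calcineurin, CaMK and class IIa HDAC genes were higher in 3 of 23 and lower in 4, or 5 and 1 on the TPM scale, among them Creb5, a CRE-binding factor, with log2(fold change) -1.03 ± 0.132, adjusted p = 1.4e-06.

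The largest upward folds among genes without overlap included regulators of growth and of the cell surface. Ngfr, the p75 neurotrophin receptor, read 5.16 CPM (3.89 to 8.47) at 10 Hz and 0.771 CPM (0.499 to 1.27) at 4 Hz, with log2(fold change) 2.87 ± 0.299, adjusted p = 9.45e-08. E2f2, a factor of the G1 to S transition, read 40.6 CPM (31.1 to 58.1) at 10 Hz and 5.87 CPM (3.58 to 8.59) at 4 Hz, with log2(fold change) 2.83 ± 0.263, adjusted p = 4.97e-08, and in the control 43.4 CPM (33 to 60.7). Hmga2, a chromatin protein of embryonic and proliferating cells, read 32.8 CPM (25.1 to 44.2) at 10 Hz and 8.21 CPM (4.96 to 10.6) at 4 Hz, with log2(fold change) 2.01 ± 0.172, adjusted p = 4.58e-09. By the rule that named them, the groups were apart for these genes.

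Sema7a, a membrane-anchored semaphorin, read 55.8 CPM (44.1 to 68.1) at 10 Hz and 12.1 CPM (9.05 to 15.2) at 4 Hz, with log2(fold change) 2.19 ± 0.229, adjusted p = 2.18e-07. Ebf1, a factor of B cells and mesenchyme, and Cyp1b1, a cytochrome P450, had log2(fold change) 2.0 ± 0.254, adjusted p = 2.22e-06 and log2(fold change) 2.18 ± 0.357, adjusted p = 5.89e-05. Cdca7, a Myc and E2F target, had log2(fold change) 2.26 ± 0.311, adjusted p = 3.59e-06, and the death receptor Tnfrsf25 log2(fold change) 2.26 ± 0.194, adjusted p = 4.58e-09. Dnm3os, a noncoding transcript that hosts microRNAs, was at 0 in 1 library at 4 Hz and read 2.7 CPM (1.79 to 3.1) at 10 Hz and 0.275 CPM (0 to 0.696) at 4 Hz, with log2(fold change) 2.86 ± 0.407, adjusted p = 5.71e-06. Tmem95, known from sperm, had log2(fold change) 2.14 ± 0.359, adjusted p = 4.66e-05.

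Among the other genes of smallest p, the receptor tyrosine kinase Ephb2 read 23.6 CPM (16.8 to 27.2) at 10 Hz and 7.06 CPM (5.09 to 8.36) at 4 Hz, with log2(fold change) 1.72 ± 0.139, adjusted p = 1.8e-09. Ahdc1, an AT-hook protein, Cdc42ep2, an effector of Cdc42, and Ncs1, a neuronal calcium sensor, had log2(fold change) 1.41, 1.11 and 1.05, with adjusted p = 8.91e-12, 3.07e-10 and 3.96e-09. Gas1, a growth-arrest membrane protein, read 45.9 CPM (42.2 to 53.3) at 10 Hz and 18.8 CPM (14.9 to 23.9) at 4 Hz, with log2(fold change) 1.27 ± 0.103, adjusted p = 1.8e-09. Chordc1, a cochaperone of HSP90, had log2(fold change) 1.26 ± 0.0962, adjusted p = 6.43e-10 and Bmper, a BMP-binding protein, log2(fold change) 1.5 ± 0.128, adjusted p = 4.58e-09. Of 27 heat shock genes, 2 were higher and 2 lower, beside 10.6% of all genes in each direction.

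Cell cycle genes were higher in 11 of 42 and lower in 1, with a median of 0.24. Cdc20, an activator of the anaphase-promoting complex, read 7.31 CPM (6.77 to 9.45) at 10 Hz and 3.82 CPM (3.2 to 4.87) at 4 Hz, with log2(fold change) 0.94 ± 0.144, adjusted p = 1.4e-05. The lower gene was Cdkn1b, the inhibitor p27, which read 67.3 CPM (57.6 to 92.5) at 10 Hz and 119.7 CPM (103 to 141) at 4 Hz, with log2(fold change) -0.76 ± 0.121, adjusted p = 2.39e-05. Both were apart between the groups. The counts were 6 and 1 without 4 Hz replicates 1, 3 and 4.

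Wnt genes were higher in 6 of 24 and lower in 2. Tcf7, a transcription factor at the end of the pathway, read 29.6 CPM (27.9 to 31.2) at 10 Hz and 12 CPM (9.79 to 13.7) at 4 Hz, with log2(fold change) 1.31 ± 0.126, adjusted p = 2.45e-08. Fzd2, a receptor, read 31 CPM (26.4 to 32.2) at 10 Hz and 15.8 CPM (15 to 17) at 4 Hz, with log2(fold change) 0.94 ± 0.0945, adjusted p = 5.26e-08, and the ligand Wnt10a had log2(fold change) 1.1 ± 0.139, adjusted p = 1.32e-06. In the Notch pathway 2 of 15 were higher and 2 lower: the ligand Jag1 read 15 CPM (11.5 to 17.1) at 10 Hz and 33.5 CPM (23.5 to 35.6) at 4 Hz, with log2(fold change) -1.09 ± 0.132, adjusted p = 6.39e-07, the target Hes1 had log2(fold change) -0.64 ± 0.146, adjusted p = 0.00111, and the target Heyl, at 0 in 1 library at 4 Hz, had log2(fold change) 2.34 ± 0.442, adjusted p = 0.000174. So ligand and targets did not move in one direction.

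In the TGF-beta, activin and BMP pathways, 5 of 30 were higher and 2 lower, beside 10.6% of all genes in each direction. The higher count was 3 without 4 Hz replicates 1, 3 and 4. Tgfbr2, the type II TGF-beta receptor, read 147 CPM (131 to 162) at 10 Hz and 96.4 CPM (87.4 to 105) at 4 Hz, with log2(fold change) 0.63 ± 0.0756, adjusted p = 5.86e-07, and Grem1, a secreted BMP antagonist, read 284 CPM (225 to 424) at 10 Hz and 133 CPM (76.1 to 193) at 4 Hz, with log2(fold change) 1.14 ± 0.207, adjusted p = 0.000166. The ligand Gdf11 had log2(fold change) 0.58 ± 0.129, adjusted p = 0.000891 with overlapping groups, and fell just under the threshold on fold without 4 Hz replicate 4, at 0.495 with adjusted p = 0.00201. Antioxidant genes of the NRF2 type were higher in 7 of 35, or 4 without those libraries, and lower in 2, while the list's median was -0.07.

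Hmox1, heme oxygenase 1, read 999 CPM (823 to 1234) at 10 Hz and 535 CPM (484 to 640.2) at 4 Hz, with log2(fold change) 0.89 ± 0.113, adjusted p = 1.36e-06. Gclc, the rate-limiting enzyme of glutathione synthesis, read 83.5 CPM (63 to 107) at 10 Hz and 38.8 CPM (33.1 to 49.3) at 4 Hz, with log2(fold change) 1.1 ± 0.127, adjusted p = 3.31e-07. G6pdx, the entry enzyme of the pentose phosphate pathway, and Slc7a11, the cystine importer, had log2(fold change) 1.09 ± 0.116, adjusted p = 1.13e-07 and log2(fold change) 1.32 ± 0.23, adjusted p = 9.49e-05. All 4 were apart between the groups. Slc7a11 is also on the list of the integrated stress response, where 1 of 24 was higher and 3 lower, and in the unfolded protein response 2 of 25 were lower and 0 higher.

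Other genes with large downward folds were regulators and signalling proteins. Arid5b, a DNA-binding coactivator, read 41.2 CPM (15.1 to 60.8) at 10 Hz and 137 CPM (109 to 159) at 4 Hz, with log2(fold change) -1.76 ± 0.295, adjusted p = 8.57e-05. Otud1, a deubiquitinase, read 55.4 CPM (37.5 to 95.8) at 10 Hz and 174 CPM (148 to 188) at 4 Hz, with log2(fold change) -1.55 ± 0.246, adjusted p = 4.15e-05. Adamts1, a matrix metalloprotease, read 51.8 CPM (32.3 to 63.3) at 10 Hz and 132 CPM (115 to 163) at 4 Hz, with log2(fold change) -1.44 ± 0.168, adjusted p = 6.79e-07, and was 1 of 4 lower genes of 20 matrix proteases and inhibitors, where 2 were higher. The groups were apart for each of these genes.

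Atosa, Fam110b, Ypel4 and Frmd4b had log2(fold change) -1.62, -1.7, -1.58 and -1.46, with adjusted p = 1.83e-07, 8.65e-07, 8.63e-05 and 1.05e-05. Lockd, a noncoding RNA downstream of Cdkn1b, had log2(fold change) -1.45 ± 0.297, adjusted p = 0.000419, and Cep85l, a centrosomal protein, log2(fold change) -1.17 ± 0.122, adjusted p = 9.21e-08. Tap1, the peptide transporter of antigen presentation, had log2(fold change) -1.04 ± 0.176, adjusted p = 4.52e-05, and was 1 of 4 lower genes of 36 in the interferon and MHC class I list, where 1 was higher. Of the 129 genes named, 94 share bases with an annotated gene that runs antisense to them, and the strand setting of the counting is not given in the sources used here.

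Basement membrane and fibrillar matrix genes were higher in 2 of 42 and lower in 0, and integrins and focal adhesion genes higher in 2 of 30 and lower in 3, beside 10.6% of all genes in each direction. Metallothionein and glucocorticoid genes were higher in 1 of 17 and lower in 4.

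Of 6 smooth muscle markers, 5 had a log2(fold change) under 0 and were not called, and the actin Acta2, which myoblasts also express, was upregulated with log2(fold change) 0.67 ± 0.123, adjusted p = 0.000125. Of 6 fibroblast and tendon markers, 4 were under 0. The tendon factor Scx was upregulated with log2(fold change) 0.61 ± 0.101, adjusted p = 3.58e-05, and the collagen gene Col14a1 was downregulated with log2(fold change) -0.72 ± 0.181, adjusted p = 0.00242. Of the 2 tested fat cell markers, Cebpa was upregulated with log2(fold change) 0.61 ± 0.10, adjusted p = 3.57e-05, and Pparg, the regulator of fat cell differentiation, had log2(fold change) -0.40 ± 0.144, adjusted p = 0.0246 and was not called. Of 5 bone and cartilage markers, the cartilage factor Sox9 was upregulated with log2(fold change) 0.51 ± 0.109, adjusted p = 0.000668 and overlapping groups, and the phosphatase Alpl was downregulated with log2(fold change) -1.23 ± 0.294, adjusted p = 0.00157. The call of Sox9 was lost without 4 Hz replicates 1, 3 and 4, at log2(fold change) 0.38, and in 4 of the 12 fits that left out 1 library. In the list of RNAs without a poly(A) tail, 1 of 22 was higher and 5 lower, or 2 and 3 on the TPM scale, and edgeR called 0 without 4 Hz replicates 1, 3 and 4, with 2 lower and 1 higher at an unadjusted p under 0.05. The 3 tested blood, vessel and nerve markers were not called, with 2 lower at an unadjusted p under 0.05 and 0 called by DESeq2.

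**Figure D5:**
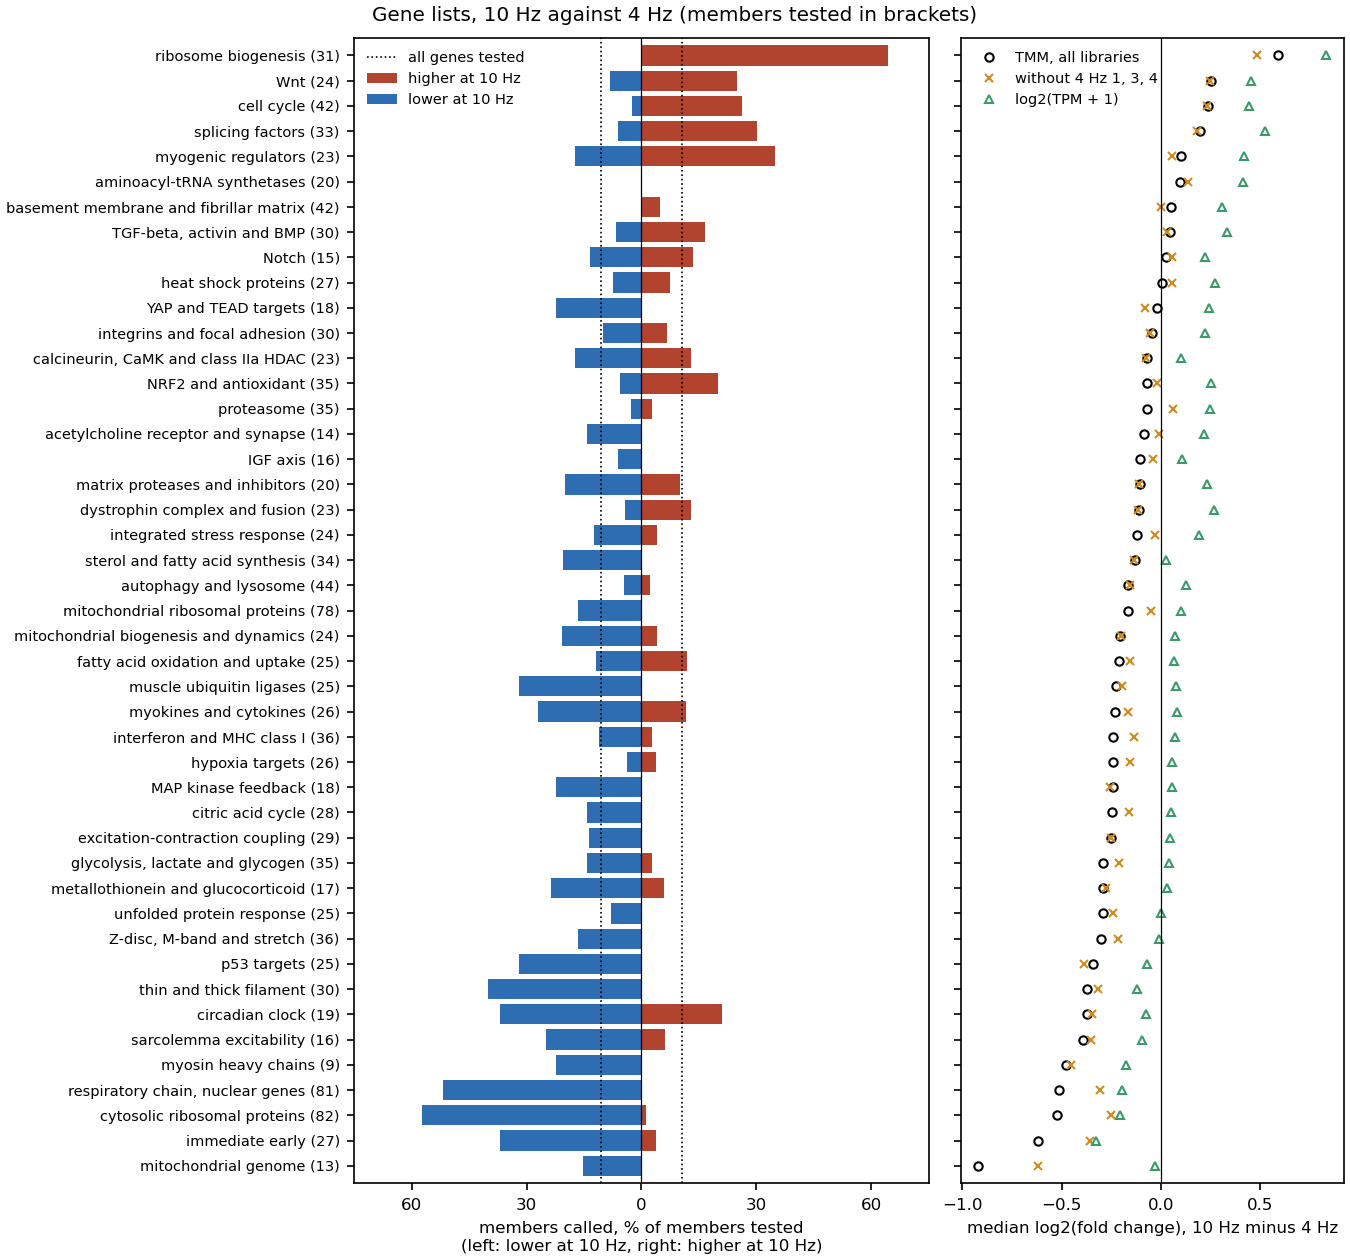
Left, for each gene list the share of tested members called lower (blue, to the left) or higher (red, to the right) at 10 Hz, with dotted lines at the share of all genes tested, 10.6% in each direction. The lists of cell type markers, muscle identity included, and of RNAs without a poly(A) tail are not drawn. Right, the median log2(fold change) of each drawn list with all libraries, without 4 Hz replicates 1, 3 and 4, and on log2(TPM + 1), where nearly every list lies to the right of its other values.

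The unstimulated control lay nearer to 10 Hz than to 4 Hz for most genes. Among genes called higher at 10 Hz, the mean log2 CPM of the control was nearer to 10 Hz in 98.7%, and among genes called lower in 91.6%, beside 81.7% of all genes tested. The 1 Hz mean was nearer to 4 Hz in 89.2% and 82.2% of the called genes, beside 68.4% of all genes tested. That mean covers unlike libraries. Relative to the mean of 4 and 10 Hz, short genes stood at 0.40 and 0.37 in 1 Hz replicates 4 and 6. The range at 1 Hz was -0.23 to 0.40. Genes called lower stood at 0.49 and 0.35 in the same replicates and at -0.19 in 1 Hz replicate 5. Genes called higher stood there at -0.44, -0.24 and 0.09. The part of this spread in the position of 1 Hz was not tested. On a scale with 4 Hz at 0 and 10 Hz at 1, the median position of the control was 1.05 for genes called higher and 0.97 for genes called lower, and that of 1 Hz was 0.27 and 0.32. The control and 1 Hz libraries entered the fit through the shared spread, the filter on low counts and the average level of each gene, and these shares carry no test.

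RefSeq promoters (250 bases before to 50 after the start, GRCm38.p6) were matched by symbol for 1092 of the 1405 genes called higher and 1025 of the 1414 called lower. An E-box (CANNTG) stood in 61.0% of the promoters of higher genes and 66.3% of those of lower genes, beside 63.8% for all genes tested and 72.3% for the whole table. The cAMP response element (TGACGTCA) stood in 2.81% and 3.32%, beside 2.95% and 1.79%. An antioxidant element (TGACNNNGC) stood in 11.7% and 16.6%, beside 14.3% and 12.4%.

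The shared part of the endoplasmic reticulum stress element (CCACG) stood in 48.4% and 43.9%, beside 46.7% and 32.8%. A CArG box stood in 1.15% and 2.11%, beside 1.36% and 1.63%, and a MEF2 site in 1.58% and 2.42%, beside 1.85% and 3.19%. All motifs were searched on both strands. No promoter of Myod1 was matched.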

How the data were processed

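RNA of C2C12 muscle tissues was sequenced in 24 libraries, 6 per group, as 50-base read pairs. Per the labels and the methods, libraries were directional and poly(A) selected, except low-input samples that were ribodepleted. The authors processed the reads with nf-core/rnaseq and the GRCm39 annotation, and deposited salmon's estimated count per gene without normalizing it. The TPM of each gene, deposited by the authors from the same pipeline, are divided by transcript length and scaled within each library. Per the methods, BWA-MEM also mapped the reads to the mouse genome and bedtools gave quality measures. The submitters' processing notes list BWA 0.7.12-r1039, bedtools 2.25.0, STAR and the builds mm10 and hg19. Of the estimated counts, 6.15% were not whole (tolerance 0.001). Of the gene identifiers, 98.9% were found in the GENCODE annotation that gave exon lengths and positions.

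Estimated counts were rounded, filtered by filterByExpr (minimum count 10, minimum total 15) and scaled by TMM in edgeR 4.0.16 (R 4.3.3). A robust quasi-likelihood F test was run in 1 fit of 24 libraries with a mean for each of the 4 groups, for the contrast 10 Hz minus 4 Hz, with p-values adjusted by Benjamini-Hochberg over 13315 genes. Genes were called at an adjusted p below 0.05 with a log2(fold change) beyond 0.5 in either direction. Log2 CPM used a prior count of 2. The biological coefficient of variation was 14.8%, and depth (8052369 to 13400006 estimated counts in the 12 libraries) sets the counting error. In simulated 10 Hz against 4 Hz libraries, edgeR recovered 91 of 100 genes changed by 1 on the log2 scale and 100 of 100 changed by 2, with 5 false calls among 13179 genes, and called 0 of 13176 where no gene was changed. The simulated counts were drawn independently, without a trend on exon length and without libraries that stand apart. The simulation therefore cannot show how many calls in the real libraries come from those features.

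Genes were named by rule: the 12 called genes in each direction with the smallest p and the 10 with the largest fold, at an average log2 CPM of at least 1 and without overlap between the groups, leaving out Gm and Rik symbols among the latter. The rule adds Myod1, Myog, Myf5, Myf6, Pax7, every tested myosin heavy chain, and the 3 members of smallest p in each of the 52 lists. It gave 189 genes, of which 120 are named, and 9 others were chosen after their values were seen. The members and the lists were chosen with earlier results of these data known. Lists are described by counts and medians, with no test.

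The alternatives were RLE and upper-quartile factors, leaving the low-count filter out or raising it to 50 counts in 6 libraries, the 12 libraries alone, the replicate number as a block, DESeq2 1.42.0, limma 3.58.1 on log2(TPM + 1) and log2(TPM + 0.1) where 6 libraries reached 1 TPM, no threshold on fold and a threshold of 1, and each library left out in turn. Leaving out 4 Hz replicates 1, 3 and 4, and removing each library's trend of counts on exon length, were chosen after seeing the data. The 30-min experiment was not analysed here. Promoter sequences came from RefSeq on another build than the counts and were matched by symbol. Some genes that the naming rule chose are not reported here.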

Additional observations from a re-analysis of the deposited data

Results flagged for a closer look

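In 13 of 272 groups of 6 libraries examined, or 4.78%, the highest or lowest library stood apart from the others by Dixon's criterion. Chance alone would meet it in about 1 of 20 independent groups. That rate is no benchmark here, because the groups share libraries and many genes were chosen by small p or by groups without overlap. The 4 Hz replicate 6 accounted for 8 of the 13. In log2 CPM it read 4.928 for Bcl2l11 (the other 4 Hz libraries 5.241 to 5.41), 7.833 for Myh3 (8.134 to 8.307), 3.999 for Irs2 (5.018 to 5.237) and 3.617 for Fosb (4.617 to 5.203), below the others. The same library read 1.058 for Cdca7 (the others -0.3617 to 0.0237), 3.353 for Cyp1b1 (1.662 to 2.162), 5.813 for Myh2 (5.344 to 5.439) and 4.71 for Wdr12 (4.201 to 4.377), above the others. Without 4 Hz replicate 6, 3115 genes were called in place of 2819.

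The 4 Hz replicate 4 read 4.39 log2 CPM for Chordc1 (the others 4.899 to 5.185) and held 2.729% of its counts in Rn18s-rs5 (the others 0.3901 to 0.7277%). Without it, 2532 genes were called. At 10 Hz, replicate 4 read 8.776 for Myog (8.913 to 8.987) and 4.734 for Fzd2 (4.935 to 5.017), and replicate 6 read 0.4506 for Klf15 (1.27 to 1.71). The log2(fold change) of Myog was 1.29 without 10 Hz replicate 4.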

How the results depend on the processing

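The number of called genes stayed within 1.5 times of 2819 under RLE (2788) and upper-quartile factors (2866), without a filter (2757), with the strict filter (2206), in the 12 libraries alone (2666), in DESeq2 (2764), with the length trend removed (2542, of which 2235 were shared), and with each library left out (2436 to 3172). On log2(TPM + 1), 2806 genes were higher and 291 lower, with 1501 calls shared, and on log2(TPM + 0.1) 3111 and 349. Without 4 Hz replicates 1, 3 and 4 it was 1501, with 542 lower. With no threshold on fold it was 6163 (2918 higher, 3245 lower), and with a threshold of 1 it was 460 (233 and 227).

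List medians, relative to the median of all genes, moved beyond their spread as follows, with the main value in brackets. Without 4 Hz replicates 1, 3 and 4 they were -0.22 for cytosolic ribosomal proteins (-0.47), 0.51 for ribosome biogenesis (0.64), 0.087 for the proteasome (-0.019) and -0.18 for RNAs without a poly(A) tail (-0.38). With the length trend removed they were -0.30 for excitation-contraction coupling (-0.20), -0.17 for the dystrophin complex and fusion (-0.057), -0.13 for calcineurin (-0.015), -0.17 for sterol synthesis (-0.077), 0.089 for NRF2 (-0.018), -0.097 for ubiquitin ligases (-0.17) and -0.16 for RNAs without a poly(A) tail. On log2(TPM + 1) they were 0.063 for dystrophin and fusion, -0.10 for calcineurin, 0.021 for Notch (0.080), -0.18 for sterol synthesis, 0.21 for aminoacyl-tRNA synthetases (0.15), 0.029 for matrix proteases (-0.051) and -0.13 for muscle identity markers (-0.23). On log2(TPM + 0.1) they were 0.035 for dystrophin and fusion, -0.092 for calcineurin, -0.13 for the IGF axis (-0.050) and -0.21 for sterol synthesis. Without a filter they were -0.085 for calcineurin, -0.022 for Notch, -0.12 for matrix proteases, -0.23 for fat (0.16) and -0.051 for blood, vessel and nerve markers (-0.32), and with the strict filter -0.14 for sterol synthesis, 0.17 for the cell cycle (0.29) and 0.14 for bone markers (-0.12). With single libraries left out, Notch ran from -0.0015 to 0.11 and blood, vessel and nerve markers from -0.46 to -0.26. The cause was not tested.

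On summed CPM the Myh1 share differed by -2.30 percentage points (-1.12 on TPM), and with log2(TPM + 0.1) the control was nearer to 10 Hz in 94.5% of higher genes (98.7%). Myh13, which was not called, ran from -0.34 to 0.071 with single libraries left out and turned sign without 4 Hz replicate 2. Myh1, Myh4 and Myh7 passed the fold threshold with upper-quartile factors.

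The groups share replicate numbers, but the deviations of same-numbered libraries correlated at -0.02, 0.01, 0.08, -0.08, 0.03 and 0.21 across genes, and 0 of 6 correlated best with their own number, so the numbers were not taken to pair them. With the replicate block 2760 genes were called, 2719 of them shared, and among named genes mt-Nd1 (-0.92, edgeR adjusted p = 0.145) and mt-Nd4l (-1.10, edgeR adjusted p = 0.0719) were no longer called.

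Depth limits low genes such as Myf6, and short genes are limited by the 3 libraries at 4 Hz that stand apart. The 10 Hz libraries were not uniform either, since replicates 3 and 5 stood above the others in short genes. Estimated counts cannot resolve close paralogs.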
